A study of Mus musculus with 30 samples.

Results

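The genes described here were chosen as markers of the epithelium that covers the ovary and the mesothelium with which it is continuous. They are 10 genes chosen by symbol: the keratins Krt7, Krt8, Krt18 and Krt19, the surface and secreted proteins Upk3b, Upk1b, Lrrn4 and Msln, and the transcription factors Lhx9 and Wt1. All 10 were found among the 18022 genes of the deposited table, and all 10 had a mean log2 CPM (read counts scaled to library size, on a log2 scale) above 0, the filter that left 14740 genes for testing. Adult female CD1 mice, an outbred stock, were dosed for 10 days with DEHP at 20 or 200 ug/kg/day, DiNP at 20 or 100 ug/kg/day, or vehicle, and the ovaries were taken 3 months after the last dose or immediately (0 months). DEHP and DiNP are phthalate plasticizers, diesters of phthalic acid that differ in their alcohol side chains. Each of the 10 groups held 3 whole-ovary libraries. The labels do not say whether the libraries of a group came from separate mice, so each p-value describes the spread between these libraries and not between animals.

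The ovarian surface epithelium is a simple layer that opens at ovulation and then closes over the wound, and it shares its origin in the coelomic lining with the peritoneal mesothelium. Simple epithelia pair a type II keratin (Krt7, Krt8) with a type I keratin (Krt18, Krt19) to form intermediate filaments. Uroplakin 3b, mesothelin and Lrrn4 are known as mesothelial surface proteins, whereas Lhx9 and Wt1, which are needed to form the gonad, are also expressed in other ovarian cells, granulosa and stromal cells among them.

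The genes lie on 7 chromosomes in GRCm38.p6. Krt7 (Entrez 110310, chromosome 15, 101412403 to 101427806), Krt8 (Entrez 16691, 101996711 to 102004342, minus strand) and Krt18 (Entrez 16668, 102028216 to 102032026, plus strand) share chromosome 15, and Krt8 and Krt18 stand head to head. Promoter windows of 300 bases, most of them upstream of the annotated start, are given by RefSeq on GRCm38.p6 for 6 of the 10 genes, Lrrn4 and Lhx9 among them. Those of 4 genes are shown because their levels moved together (Krt7 and Upk3b, each with Krt19) or did not (the filament partners Krt8 and Krt18). The windows are chr15:101412153-101412452 on the plus strand for Krt7, chr5:136038246-136038545 on the plus strand for Upk3b, chr15:102004293-102004592 on the minus strand for Krt8 and chr15:102027966-102028265 on the plus strand for Krt18. Capitals mark matches on either strand to the GC box (GGGCGG), the TATA box (TATAAA), the CCAAT box (CCAAT), the E-box (CANNTG), the AP-1 site (TGANTCA) and the TEAD site (GGAATG), with overlapping matches merged.
Krt7: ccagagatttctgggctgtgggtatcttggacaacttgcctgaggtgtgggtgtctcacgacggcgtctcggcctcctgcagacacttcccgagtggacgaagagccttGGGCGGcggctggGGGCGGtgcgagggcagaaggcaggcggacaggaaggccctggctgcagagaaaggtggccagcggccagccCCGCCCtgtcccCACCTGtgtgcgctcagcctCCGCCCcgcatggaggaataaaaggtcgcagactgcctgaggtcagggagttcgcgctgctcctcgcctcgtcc
Upk3b: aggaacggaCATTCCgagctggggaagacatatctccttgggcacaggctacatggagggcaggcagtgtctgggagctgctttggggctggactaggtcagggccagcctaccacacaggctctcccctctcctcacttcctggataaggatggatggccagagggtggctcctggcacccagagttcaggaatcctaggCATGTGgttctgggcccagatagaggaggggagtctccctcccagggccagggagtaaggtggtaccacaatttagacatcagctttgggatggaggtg
Krt8: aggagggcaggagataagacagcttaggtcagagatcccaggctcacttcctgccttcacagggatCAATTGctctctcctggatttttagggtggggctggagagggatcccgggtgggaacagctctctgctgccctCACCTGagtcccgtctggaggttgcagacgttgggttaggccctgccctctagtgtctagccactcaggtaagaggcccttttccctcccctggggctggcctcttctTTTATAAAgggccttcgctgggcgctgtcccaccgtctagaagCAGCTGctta
Krt18: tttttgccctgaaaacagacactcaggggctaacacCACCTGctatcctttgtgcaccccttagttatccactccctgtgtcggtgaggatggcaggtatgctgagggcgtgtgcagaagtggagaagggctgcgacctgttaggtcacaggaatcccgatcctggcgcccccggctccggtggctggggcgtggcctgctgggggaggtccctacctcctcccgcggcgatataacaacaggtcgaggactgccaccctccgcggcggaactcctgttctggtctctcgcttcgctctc

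The Krt7 window held 4 GC boxes, at -141, -128, -56 and -24 from the start site, and was 66.3% G and C. A GC box stood in 35.9% of 27025 promoter windows of this length and in 1 of the 6 member windows. The Krt8 window was the only one of the 6 with a TATA box, which was read on both strands at -3 and -1, against 14.2% of all windows. An E-box, which 72.1% of all windows hold, was present in 5 of the 6, and a TEAD site was present in Upk3b and Lrrn4, against 14.6% of all windows. The CCAAT box was found in Lhx9 alone of the 6, against 37.9% of all windows, and the AP-1 site in none of them, against 7.93%. These matches describe the letters of the windows and show no binding.

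Per kilobase of exon, Wt1 had the highest median level over the 30 libraries, at 27.7 CPM per kb. Krt8 followed at 17.1, Upk3b at 11.0, Krt19 at 10.3 and Krt18 at 7.37 CPM per kb. Msln (3.40), Upk1b (2.21), Lrrn4 (1.63), Lhx9 (1.61) and Krt7 (1.30 CPM per kb) were the low members. All 9 genes fixed as markers of the surface epithelium and mesothelium were detected in every library, with a summed level of 72.2 to 135.6 CPM at 3 months and 73.8 to 176.5 CPM at 0 months. In whole ovaries, fewer surface cells and less RNA per surface cell cannot be told apart. Within groups the SD of a member ran between 0.25 log2 (Krt8) and 0.65 log2 (Msln), and Wt1 (0.28) was the next steadiest. In the order of the 10 group means of each member, no 2 neighbours differed by more than that member's within-group SD except in Krt8, where the mean of DiNP 100 at 3 months stood 0.28 log2 above the next.

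Across the series, 30 libraries had column sums of 907668 to 1164842 CPM, and libraries of a group correlated at 0.908 to 0.980 over genes. No read counts were used here, so the depth of a library is unknown. Of 8 oviduct epithelium markers, the sum was 23.2 to 61.9 CPM in 27 libraries. It was 238.5 and 89.9 CPM in DEHP 20 replicates 2 and 3 at 3 months and 161.9 CPM in DEHP 200 replicate 1 at 3 months. Results of the 10 genes that rest on the 2 highest, DEHP 20 replicate 2 and DEHP 200 replicate 1, are given with and without them.

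**Figure D1:**
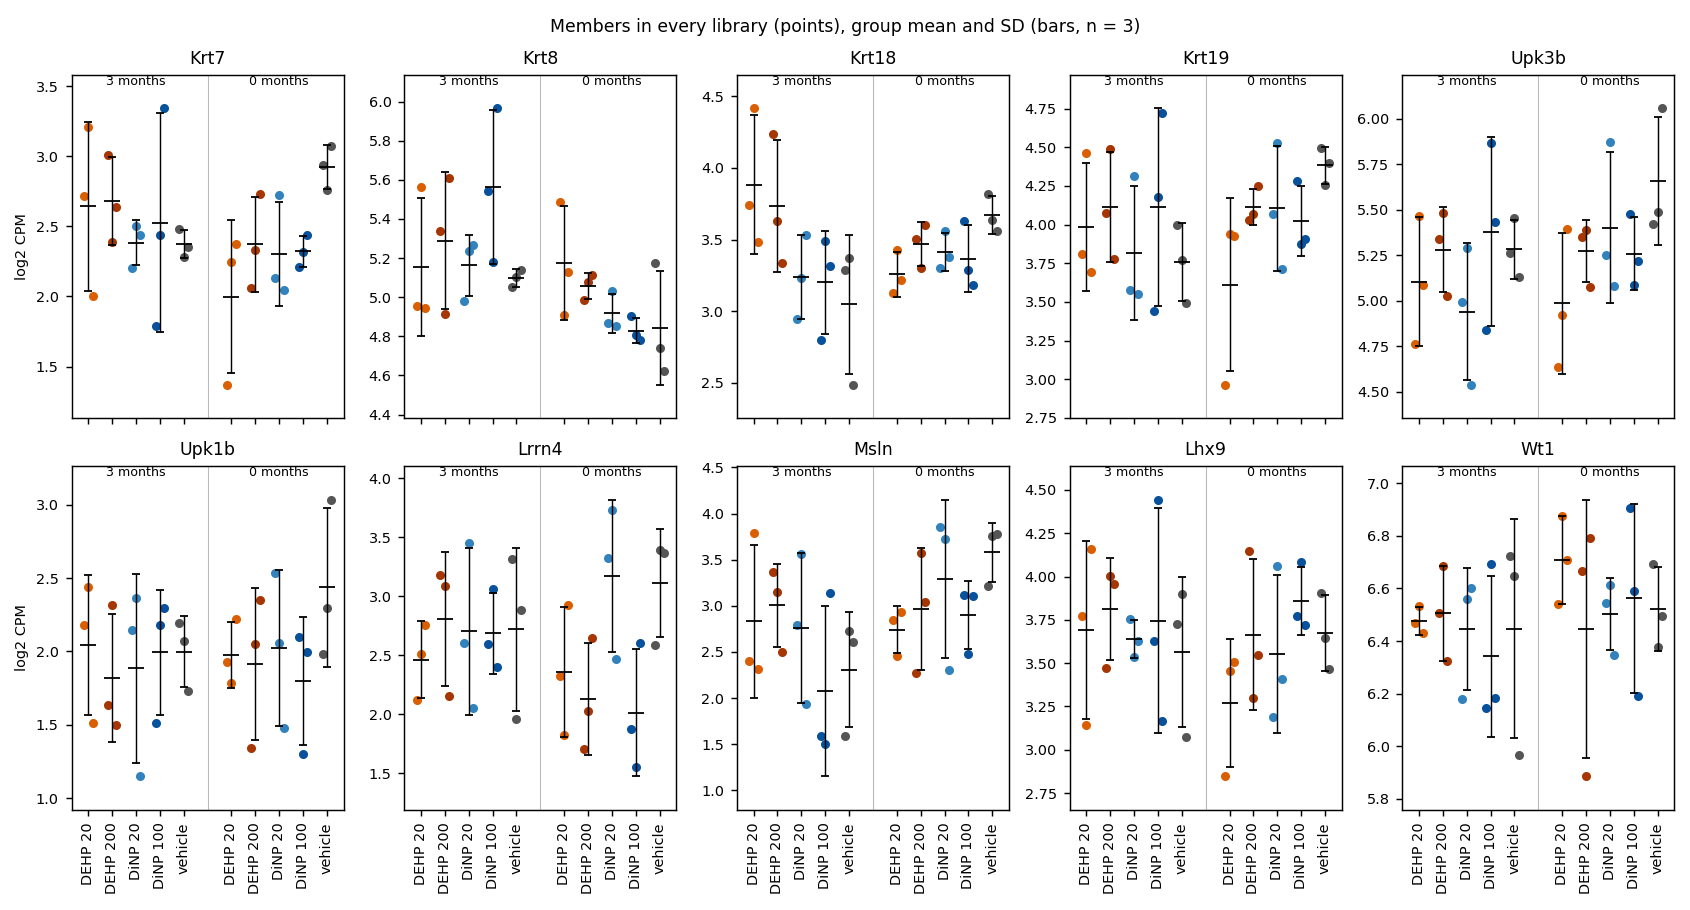
Level of each of the 10 genes in every library (points, log2 CPM), with the group mean and SD as bars (n = 3), 3-month groups left and 0-month groups right, treated groups left of vehicle; the vertical scale differs between panels. The 3 vehicle values of Krt7 at 0 months (2.76 to 3.07) lie above all 12 treated values at that time.

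The first question was whether the phthalates altered these genes at the end of dosing. At 0 months none of the 10 genes was called against vehicle at either dose of either compound at an adjusted p under 0.05 (limma, Benjamini-Hochberg over 14740 genes), where 0% of all genes were called in each of the 4 comparisons. Most members were nevertheless below vehicle: 8 of 10 at DEHP 20, 9 at DEHP 200, 8 at DiNP 20 and 8 at DiNP 100. The median log2 difference of the 10 was -0.57, -0.33, -0.26 and -0.38 in that order, where the median of all genes lay between -0.00 and 0.01. The DiNP 20 median rested on single libraries: it was -0.07 without DiNP 20 replicate 3, -0.40 without DiNP 20 replicate 2 and -0.15 without vehicle replicate 3. The share of all genes below vehicle was 48.7%, 50.4%, 50.3% and 46.2%. The 4 comparisons share the same 3 vehicle libraries and are not independent of each other.

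Among the keratins, Krt7, a keratin of simple epithelia, had 1.37, 2.25 and 2.38 log2 CPM with DEHP 20 and 2.06, 2.33 and 2.73 with DEHP 200. It had 2.13, 2.73 and 2.05 with DiNP 20 and 2.21, 2.32 and 2.44 with DiNP 100, against 2.94, 2.76 and 3.07 with vehicle. All 12 treated libraries therefore lay below all 3 vehicle libraries, as they did for 32 genes, or 0.217% of those tested. The log2 difference was -0.92 ± 0.33 (SE) with DEHP 20, 1.90-fold lower, with an unadjusted p of 0.0096 and an adjusted p of 1.00 in limma. With DEHP 200 it was -0.55, with DiNP 20 it was -0.62 (unadjusted p = 0.071 in the model across all genes, the smallest of the 10 members there) and with DiNP 100 it was -0.60.

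Krt19, the type I keratin without a tail domain, had 2.96, 3.94 and 3.93 log2 CPM with DEHP 20, against 4.50, 4.26 and 4.40 with vehicle. The groups did not overlap, and DEHP 20 replicate 1 was the lowest library of the series. The log2 difference was -0.77 ± 0.30 (unadjusted p = 0.018, adjusted p = 1.00, limma). It was -0.27 with DEHP 200, -0.28 with DiNP 20 and -0.36 with DiNP 100. Krt18, the usual partner of Krt8, had 3.13, 3.43 and 3.22 log2 CPM with DEHP 20, against 3.82, 3.64 and 3.56 with vehicle, again without overlap, and a log2 difference of -0.42 with a 95% interval of -0.95 to 0.11. Krt8 stood on the other side of vehicle, at 5.49, 4.91 and 5.13 log2 CPM with DEHP 20, against 5.17, 4.74 and 4.62 with vehicle. Its log2 difference was 0.33 with an interval of -0.08 to 0.74, and the groups overlapped.

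Of the surface proteins, Upk3b, a uroplakin of the mesothelium, had 4.63, 4.92 and 5.40 log2 CPM with DEHP 20, against 5.42, 5.49 and 6.06 with vehicle. Every DEHP 20 library lay below every vehicle library, by a narrow margin at the edge. Its log2 difference was -0.67 ± 0.26 (unadjusted p = 0.017, adjusted p = 1.00, limma), and it was -0.38 with DEHP 200, -0.25 with DiNP 20 and -0.40 with DiNP 100. Krt7, Krt19 and Upk3b were the 3 members lower at an unadjusted p under 0.05 with DEHP 20, where 1.21% of all genes were. Without DEHP 20 replicate 1, the lowest of its group in all 3, these differences were -0.61, -0.45 and -0.50 and no longer passed the unadjusted threshold, and the median of the 10 genes was -0.44.

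Lrrn4, a leucine-rich repeat membrane protein, had 1.71, 2.02 and 2.64 log2 CPM with DEHP 200 and 1.87, 1.56 and 2.61 with DiNP 100, against 2.58, 3.39 and 3.36 with vehicle. In both treated groups 1 library reached above the lowest vehicle library. The log2 difference was -0.99 ± 0.42 with DEHP 200 (unadjusted p = 0.029, adjusted p = 0.914, limma) and -1.10 ± 0.42 with DiNP 100 (unadjusted p = 0.016, adjusted p = 1.00). It was the 1 member lower at that unadjusted level in each, where 3.31% and 0.95% of all genes were. Leaving out single libraries gave differences of -1.25 to -0.78 with DEHP 200, and 2 of 6 such fits kept that level. With DiNP 100 they were -1.40 to -0.87, and 3 of 6 kept it. With DiNP 20, where 2.08% of all genes passed in either direction and no member did, Lrrn4 was 3.33, 3.73 and 2.47 log2 CPM, a difference of 0.06 from vehicle. In a test of any treatment difference at 0 months (limma F test), Lrrn4 had the smallest unadjusted p of the 10, at 0.026 (adjusted p = 1.00). Krt7 had 0.11 in that test, where 325 of 14740 genes had an unadjusted p under 0.05 and 0 were called.

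Msln, which encodes the mesothelial surface protein mesothelin, had 2.84, 2.45 and 2.93 log2 CPM with DEHP 20 and 3.12, 2.48 and 3.11 with DiNP 100, against 3.21, 3.76 and 3.78 with vehicle. Neither treated group overlapped vehicle, and the log2 differences were -0.84 (interval -1.89 to 0.21) and -0.68 (interval -1.73 to 0.37). Upk1b, a uroplakin of the tetraspanin family, differed from vehicle by -0.46 and -0.53 with the lower and higher dose of DEHP and by -0.41 and -0.64 with those of DiNP, and its groups overlapped in each. Counted over the 10, the groups did not overlap and lay below vehicle in 5 members with DEHP 20 (Krt7, Krt18, Krt19, Upk3b and Msln), where 4.8% of all genes did. There were 3 with DEHP 200 (Krt7, Krt19 and Upk3b; 4.25% of all genes), 2 with DiNP 20 (Krt7 and Krt18; 4.67%) and 2 with DiNP 100 (Krt7 and Msln; 4.26%). No member lay above vehicle without overlap.

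Of the transcription factors, Lhx9, a LIM homeobox factor of the gonadal surface, was -0.40 and -0.01 log2 from vehicle with the lower and higher dose of DEHP and -0.12 and 0.19 with those of DiNP. Wt1, the Wilms tumor factor, was 0.19, -0.07, -0.02 and 0.04 from vehicle in the same order, and the interval for DEHP 20 reached from -0.27 to 0.64. The sum of 5 smooth muscle markers at 0 months, the marker list most correlated with the members, was 988.3 to 1359.1 CPM at DEHP 20, 808.7 to 1582.7 at DEHP 200, 722.6 to 1211.1 at DiNP 20 and 981.6 to 1285.2 at DiNP 100, against 864.3 to 1253.9 CPM with vehicle. These ranges overlapped.

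**Figure D2:**
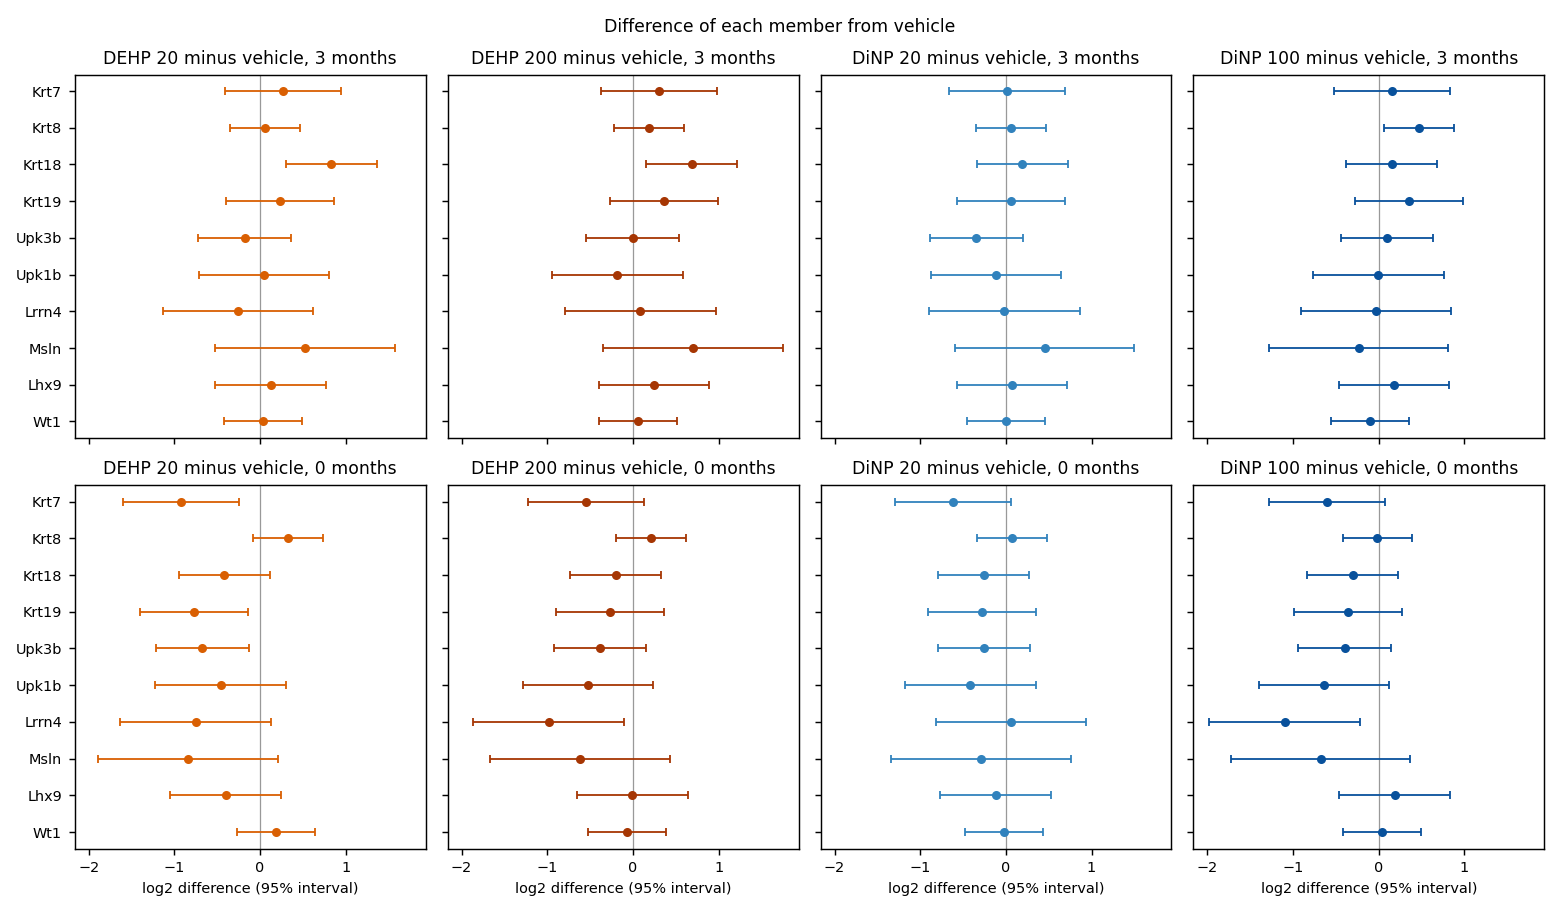
Log2 difference of each gene from vehicle (points) with its 95% interval from the fit across all genes (bars), 3 months above and 0 months below, 1 panel for each compound and dose in ug/kg/day. At 0 months the points of most genes other than Krt8, Lhx9 and Wt1 lie left of 0, and at 3 months Krt18 with DEHP 20 (0.83) and DEHP 200 (0.69) and Krt8 with DiNP 100 (0.47) have intervals above 0.

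A panel of 12 further surface and mesothelial genes, of which 11 passed the filter, was read beside the 10. At 0 months none was called. In the panel 10 of 11 were below vehicle at DEHP 20, 8 at DEHP 200, 9 at DiNP 20 and 10 at DiNP 100, with medians of -0.35, -0.24, -0.14 and -0.25 log2. Of all genes 48.7%, 50.4%, 50.3% and 46.2% were below vehicle. The panel is not independent of the 10. It was read against the same vehicle libraries and chosen with earlier results known. Over the 30 libraries its genes Gpm6a and Rspo1 had r = 0.689 and 0.674 with the members' mean z-score. Gpm6a, which encodes a neuronal membrane glycoprotein also found in mesothelium, was -0.73 ± 0.24 with DEHP 20 and likewise with DiNP 100, the smallest unadjusted p of the panel in each (0.0051 and 0.0052; adjusted p = 1.00, limma). Pkhd1l1 was -0.85 and Rspo1, a secreted activator of Wnt signalling, was -0.59 with DEHP 20. Lgr5, a receptor for R-spondins that marks a subset of the ovarian surface, was -1.75 ± 0.75 with DEHP 200 (unadjusted p = 0.028, adjusted p = 0.914, limma). Its level ran from 4.69 through a median of 82.4 to 220.1 CPM over the 30 libraries. Aldh1a1 of this panel was also listed as a theca marker.

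At 3 months none of the 10 genes was called against vehicle, and 0% of all genes were called in any of the 4 comparisons. The members' median log2 difference was 0.09 at DEHP 20, 0.22 at DEHP 200, 0.04 at DiNP 20 and 0.12 at DiNP 100, and 2, 2, 4 and 4 of the 10 were below vehicle. Of all genes 48.9%, 52.9%, 49.7% and 48.5% were below vehicle, and their median lay between -0.01 and 0.01. Leaving out single libraries moved the members' medians between -0.01 and 0.24, 0.15 and 0.33, -0.08 and 0.12, and -0.04 and 0.30. Without vehicle replicate 3 the DEHP 20, DiNP 20 and DiNP 100 medians were -0.01, -0.08 and -0.02, and their signs also changed without DEHP 20 replicate 2 (-0.01), DiNP 20 replicate 2 (-0.05) and DiNP 100 replicate 2 (-0.04). Of the 11 further surface genes, 6 were below vehicle at DEHP 20, 3 at DEHP 200, 4 at DiNP 20 and 9 at DiNP 100, with medians of -0.02, 0.16, 0.04 and -0.17, and none was called. Cdh1, which encodes E-cadherin of epithelial junctions, was 1.35 ± 0.43 with DEHP 20 and 0.99 ± 0.43 with DEHP 200 (unadjusted p = 0.0045 and 0.031, limma). Those groups held the libraries highest in oviduct epithelium markers, DEHP 20 replicate 2 and DEHP 200 replicate 1. The Cdh1 differences are given with those libraries only, and the part of the oviduct markers in them was not tested. With DiNP 100, Pkhd1l1 was -0.97 ± 0.31 and Muc16, a membrane mucin of the mesothelium, was -0.82 (unadjusted p = 0.0042 and 0.040, limma).

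Krt18 had the smallest p at this time. It had 3.74, 4.42 and 3.48 log2 CPM with DEHP 20 and 4.24, 3.63 and 3.33 with DEHP 200, against 3.29, 3.37 and 2.49 with vehicle. DEHP 20 did not overlap vehicle, as in 3.09% of all genes on the higher side, and DEHP 200 did overlap it. The log2 difference was 0.83 ± 0.26 with DEHP 20 (1.78-fold, unadjusted p = 0.0035, adjusted p = 1.00, limma), where 1.23% of all genes were higher at an unadjusted p under 0.05. It was 0.69 ± 0.26 with DEHP 200 (unadjusted p = 0.013, adjusted p = 1.00), where 0.95% of all genes were. With DiNP 20 Krt18 differed by 0.19 and with DiNP 100 by 0.15, and no member passed that level with DiNP 20, where 1.52% of all genes did in either direction. The smallest p with DiNP 20 was that of Upk3b, at -0.34 with an interval of -0.88 to 0.20 (unadjusted p = 0.20, limma).

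The libraries highest in Krt18 were also the 2 highest in oviduct epithelium markers. The summed markers were 55.6, 238.5 and 89.9 CPM with DEHP 20 and 161.9, 54.4 and 40.4 with DEHP 200. They were 31.3 to 42.8 CPM with DiNP 20 and 23.2 to 44.2 with DiNP 100, against 40.0, 40.6 and 37.2 CPM with vehicle. All 8 markers were above the table's minimum in most libraries, and Dynlrb2 was at that minimum in 2 of 30. With DEHP 20 Ovgp1, the oviduct glycoprotein, differed by 3.36 log2 and Foxj1, a factor of ciliated cells, by 3.16 (unadjusted p = 0.0065 and 0.018 in limma). Without the 2 highest libraries the Krt18 difference was 0.56 with DEHP 20 (unadjusted p = 0.029, limma) and 0.43 with DEHP 200 (unadjusted p = 0.085). It was 0.55 and 0.41 without vehicle replicate 3, the lowest library. The part of the oviduct markers in the Krt18 difference was not tested.

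**Figure D3:**
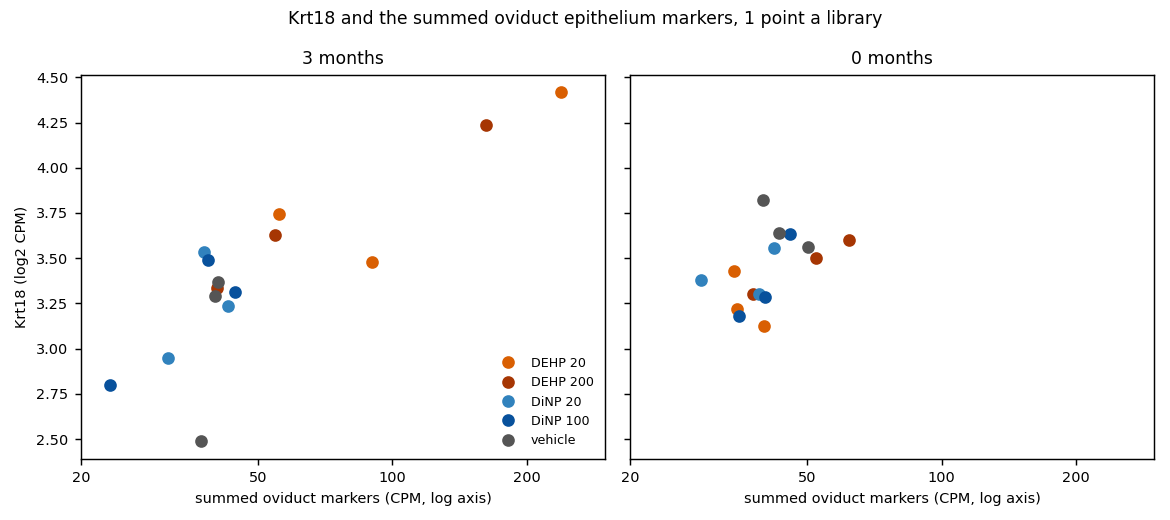
Krt18 (log2 CPM) against the sum of 8 oviduct epithelium markers (CPM, log axis), 1 point a library, 3 months left and 0 months right, coloured by treatment with doses in ug/kg/day. At 3 months DEHP 20 replicate 2 (238.5 CPM) and DEHP 200 replicate 1 (161.9 CPM) have the highest Krt18, and at 0 months all libraries lie between 28.9 and 61.9 CPM.

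With DiNP 100 at 3 months it was Krt8 that had the smallest p. It had 5.54, 5.18 and 5.97 log2 CPM, against 5.05, 5.10 and 5.14 with vehicle. The groups did not overlap, as in 2.77% of all genes on the higher side, although the lowest DiNP 100 library lay close to the highest vehicle library. The log2 difference was 0.47 ± 0.20 (unadjusted p = 0.027, adjusted p = 0.518, limma), where 4.37% of all genes were higher at that unadjusted level, and it was 0.26 without DiNP 100 replicate 3. In a test of any treatment difference at 3 months (limma F test), Krt18 had the smallest unadjusted p of the 10, at 0.013 (adjusted p = 0.957), and Krt8 had 0.16. In that test 588 of 14740 genes had an unadjusted p under 0.05 and 0 were called.

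The 2 compounds were compared directly at their shared dose of 20 ug/kg/day. At 0 months DEHP 20 and DiNP 20 did not differ in any member at an unadjusted p under 0.05, where 2.05% of all genes did. The smallest was that of Lrrn4, at -0.82 log2 for DEHP minus DiNP with an interval of -1.69 to 0.06 (unadjusted p = 0.067, limma). At 3 months Krt18 had 3.74, 4.42 and 3.48 log2 CPM with DEHP 20 and 2.95, 3.23 and 3.53 with DiNP 20, and 1 DiNP library lay within the DEHP range. It was 0.64 ± 0.26 log2 higher with DEHP 20 (unadjusted p = 0.020, adjusted p = 1.00, limma), where 1.88% of all genes were higher at that level. The difference was 0.37 (unadjusted p = 0.13, limma) without the 2 libraries highest in oviduct markers. No member and 0% of all genes were called at either time. The intervals of the other 9 members at 3 months all include 0, that of Upk3b reaching from -0.38 to 0.71 and that of Krt8 from -0.41 to 0.40.

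Dose was compared within each compound. For DEHP 200 minus DEHP 20, 0% of all genes were called at either time and no member had an unadjusted p under 0.05, where 3.95% of all genes did at 0 months and 0.957% at 3 months. The smallest p of the members at 0 months was that of Krt19, at 0.50 (interval -0.13 to 1.13), and at 3 months that of Lrrn4, at 0.34 (interval -0.53 to 1.22). For DiNP 100 minus DiNP 20 at 0 months, Lrrn4 had 1.87, 1.56 and 2.61 log2 CPM at the higher dose, against 3.33, 3.73 and 2.47 at the lower. The groups overlapped by 1 library, and the log2 difference was -1.16 ± 0.42 (unadjusted p = 0.012, adjusted p = 1.00, limma), where 0.271% of all genes were lower at that unadjusted level. Leaving out single libraries gave -1.52 to -0.88 for Lrrn4, and 4 of 6 such fits kept an unadjusted p under 0.05. At 3 months the DiNP doses differed in 12.2% of all genes at an unadjusted p under 0.05 in either direction but in no member. Krt8 was nearest, at 0.40 with an unadjusted p of 0.053. No gene, 0%, was called for the DiNP doses at either time.

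The second axis of the study was the time after dosing. Over all 15 ovaries at 3 months and all 15 at 0 months, Krt8 rose and was the only 1 of the 10 to be called. Krt8 ran from 4.91 through a median of 5.18 to 5.97 log2 CPM at 3 months, and from 4.62 through 4.91 to 5.49 at 0 months, so the ranges overlapped. The mean was 5.25 ± 0.30 at 3 months and 4.97 ± 0.21 at 0 months (SD, n = 15 each), a log2 difference of 0.29 ± 0.09 (SE), or 1.22-fold, with an adjusted p of 0.024 in limma. Of all genes 20.3% were called, and 18.6% were higher at an unadjusted p under 0.05, so a called gene was common in this comparison. Krt8 also had the lowest r of the 10 with the members' mean z-score over the 30 libraries, at 0.009. Krt8 was higher at 3 months in 4 of the 5 treatments, by 0.23 with DEHP 200, 0.24 with DiNP 20, 0.74 with DiNP 100 and 0.25 with vehicle, and -0.02 with DEHP 20. Without the 2 libraries of highest oviduct markers the difference was 0.24 with an adjusted p of 0.071, and no member was called.

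Msln was lower at 3 months at an unadjusted p under 0.05, where 16.5% of all genes were. It ran from 1.497 through a median of 2.60 to 3.79 log2 CPM at 3 months, and from 2.27 through 3.11 to 3.85 at 0 months. The log2 difference was -0.50 ± 0.23 (unadjusted p = 0.037, adjusted p = 0.117, limma). It kept that unadjusted level in 14 of 30 fits that each left out a single library. By treatment it was -1.27 with vehicle, -0.83 with DiNP 100 and -0.53 with DiNP 20. With DEHP 20 and DEHP 200 it was 0.09 and 0.04. The other 8 members had intervals that include 0, from -0.12 for Upk3b to 0.14 for Krt7 in log2 difference. Krt18, the filament partner of Krt8, differed by -0.02 with an interval of -0.25 to 0.22. The log2 ratio of Krt8 to Krt18 was 1.83 ± 0.56 at 3 months and 1.53 ± 0.32 at 0 months (SD, n = 15 each), a difference of 0.30 that did not pass a 2-sided permutation test of time within treatment (p = 0.086). Time is also the age of the mice here, and the 2 cannot be told apart.

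In vehicle ovaries alone, 9 of the 10 genes were lower at 3 months than at 0 months, with a median log2 difference of -0.42, where 50.5% of all genes were lower. The median was -0.24 without vehicle replicate 3 of the 0-month group. The 0-month vehicle libraries are the same ones against which the treated groups were read at 0 months. Their mean was the highest of the 10 groups in Krt7, Krt19, Upk3b, Upk1b and Msln. The fall in vehicle ovaries and the lower levels in treated ovaries at 0 months are therefore not independent results. No member was called, and 0.00678% of all genes, a single gene, were. Msln had 1.59, 2.73 and 2.60 log2 CPM at 3 months, against 3.21, 3.76 and 3.78 at 0 months, without overlap, and differed by -1.27 ± 0.51 (unadjusted p = 0.019, adjusted p = 0.603, limma). Krt18 had 3.29, 3.37 and 2.49 at 3 months, against 3.82, 3.64 and 3.56 at 0 months, and differed by -0.62 ± 0.26 (unadjusted p = 0.023). These were the 2 members lower at that unadjusted level, where 3.88% of all genes were. Msln kept that level in 3 of 6 fits that each left out a single library, with differences of -1.49 to -0.91. Krt18 differed by -0.34 without vehicle replicate 3 of the 3-month group. Krt8 alone was higher, by 0.25.

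**Figure D4:**
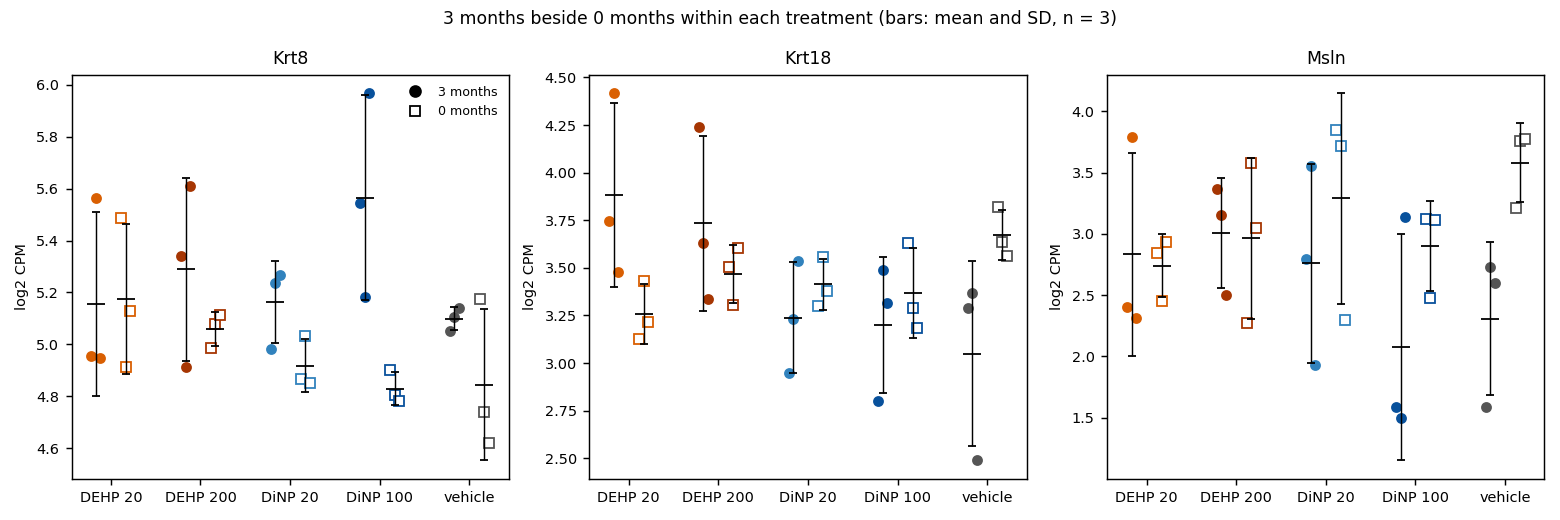
Krt8, Krt18 and Msln (log2 CPM) in each treatment, with 3 months (filled circles) left of 0 months (open squares) and the mean and SD as bars (n = 3); doses are in ug/kg/day and the vertical scale differs between panels. Krt8 is higher at 3 months in 4 of 5 treatments, and Msln in vehicle ovaries is lower at 3 months without overlap.

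The difference between the treatment effect at 3 months and that at 0 months was tested as an interaction. None was called for any member, and 0% of all genes were called for any treatment. For DEHP 20 the interaction was 1.25 ± 0.36 log2 in Krt18 (unadjusted p = 0.0022, limma), 1.19 ± 0.46 in Krt7 (0.017) and 1.01 ± 0.43 in Krt19 (0.029), each with an adjusted p of 1.00, where 1.29% of all genes were higher at that unadjusted level. Without the 2 libraries of highest oviduct markers these were 0.98, 0.91 and 0.77, and the last 2 lost the unadjusted level. For DEHP 200 it was 0.89 ± 0.36 in Krt18 (0.022), where 1.57% of all genes were, and 0.64 (0.061) without those libraries. No member passed for DiNP 20, where 1.49% of all genes did in either direction, or for DiNP 100, where 2.33% did; the members of smallest p were Krt7 for DiNP 20 (log2 interaction 0.63, unadjusted p = 0.19, limma) and Lrrn4 for DiNP 100 (log2 interaction 1.07, unadjusted p = 0.089). The interactions contain the vehicle difference over time, which all 4 share.

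Related genes from other lists were read over the same 2 times, where 20.3% of all genes were called. Of the 11 further surface genes, Bnc1, a zinc finger factor, fell by 0.36 ± 0.12 log2 at 3 months (adjusted p = 0.031, limma) and was the only 1 called. Its adjusted p was 0.074 without the 2 libraries of highest oviduct markers. Of 4 oocyte markers, Zp3, Ooep and Gdf9 also fell, by 0.76, 0.70 and 0.58 (adjusted p = 0.0032, 0.0061 and 0.015, limma). The part of oocytes in the Bnc1 difference was not tested. Of 9 epithelial junction genes tested, Ocln, which encodes occludin, rose by 1.04 ± 0.15 and Dsp, which encodes desmoplakin, rose by 0.52 ± 0.10 (adjusted p = 0.00012 and 0.0023). The junction gene Cldn4, a claudin, fell by 0.73 (adjusted p = 0.0063). Of 8 transcriptional regulators that act with Lhx9 and Wt1 in the gonad, Cbx2, Gata6, Emx2 and Foxl2 fell by 0.44, 0.33, 0.38 and 0.34 (adjusted p = 0.0043, 0.013, 0.021 and 0.023), while Lhx9 and Wt1 themselves differed by 0.09 and -0.10 and were not called. These 7 junction and regulator calls held without the 2 libraries (adjusted p = 0.00082 to 0.042). Only 3 of 9 other keratins, Krt10, Krt20 and Krt80, passed the filter, and none of them was called. The sum of 6 granulosa cell markers, Foxl2 among them, was 1650 to 3153 CPM at 3 months and 1941 to 4304 CPM at 0 months. All 6 were lower at 3 months, with a median log2 difference of -0.47, and Inha, Nr5a2, Amh, Foxl2 and Cyp19a1 fell, 5 of 6. Without the 2 libraries of highest oviduct markers, Nr5a2 and Cyp19a1 were no longer called (adjusted p = 0.060 and 0.087, limma). Of 5 smooth muscle markers, Acta2, Actg2 and Cnn1 fell by 0.35, 0.45 and 0.50 (adjusted p = 0.022, 0.045 and 0.047). Without those 2 libraries Cnn1 was still called (adjusted p = 0.041) but Acta2 and Actg2 were not (adjusted p = 0.061 and 0.070). Other markers rose. Of 4 immune markers, Adgre1, Ptprc and Cd68 rose by 0.70, 0.57 and 0.42 (adjusted p = 0.0048, 0.0066 and 0.020, limma). Of 5 corpus luteum markers, Akr1c18 rose by 3.43 (adjusted p = 0.032, and 0.078 without those 2 libraries). The part of granulosa, muscle, immune and luteal cells in these differences was not tested.

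Deviations from the group means were correlated between the 10 genes over the 30 libraries, by permuting values within groups. Of 45 pairs, 34 had a positive Pearson r and 5 had an adjusted p under 0.05. Krt7 with Krt19 had r = 0.744 (permutation p = 0.0026, adjusted p = 0.032) and rho = 0.636 (0.0060, adjusted 0.045), with r = 0.636 without the 2 libraries outermost in Krt7. Krt19 with Upk3b had r = 0.705 (0.0035, adjusted 0.032) and rho = 0.704 (0.0018, adjusted 0.031), with r = 0.696 without the 2 libraries outermost in Krt19. The libraries left out were chosen for each pair by its first-named gene, not by the oviduct markers. These pairs join a keratin to another keratin and to a uroplakin.

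Upk1b with Msln had r = 0.669 (0.0020, adjusted 0.032) and rho = 0.612 (0.0054, adjusted 0.045) by the same permutation, and r = 0.600 without the 2 libraries outermost in Upk1b. Krt19 with Upk1b had r = 0.578 (permutation p = 0.00355, adjusted 0.032), rho = 0.626 (0.0021, adjusted 0.031) and r = 0.531 without the 2 outermost in Krt19. Krt18 with Wt1 had r = 0.657 (permutation p = 0.00012, adjusted 0.0054), rho = 0.749 (7e-05, adjusted 0.0031) and r = 0.753 without the 2 outermost in Krt18. The filament partners Krt8 and Krt18 had r = 0.194 (permutation p = 0.46) and rho = 0.248 (0.29). Among the 4 surface and secreted proteins all 6 pairs were positive, between 0.371 and 0.669. Between the transcription factors and the other 8 genes r ranged from -0.548, for Msln with Lhx9, to 0.657.

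**Figure D5:**
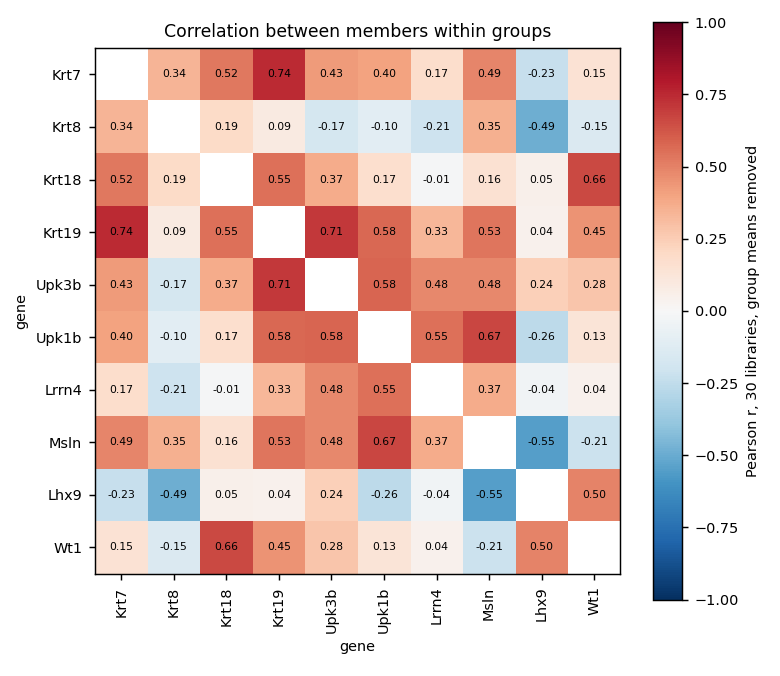
Pearson r between members over 30 libraries after the group means were removed, as a symmetric map of 10 by 10 genes, with red for positive and blue for negative r. Krt7 with Krt19 (0.744) and Krt19 with Upk3b (0.705) are the highest, and the Krt8 row runs between -0.489 with Lhx9 and 0.354 with Msln, at 0.194 with Krt18.

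The members' mean z-score within groups was also set against the mean of 10 marker lists of other cell types. Smooth muscle markers had r = 0.608 (permutation p = 0.0035, adjusted p = 0.035 over the 10) and rho = 0.585 (0.0057, adjusted 0.057), with r = 0.556 without the 2 libraries outermost in those markers. Stroma had r = 0.573, oviduct epithelium 0.516 and adipocytes 0.458, each with an adjusted permutation p of 0.062. Granulosa markers had r = -0.00 and corpus luteum markers -0.14. All of these lists share the libraries of the members, and the part of neighbouring tissue in the members' levels was not tested.

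As a description over all 30 libraries, the genes outside the list most like the members' mean z-score were Cldn15 (r = 0.708), Asic2 (0.703), Crip1 (0.692), Gpm6a (0.689) and Rspo1 (0.674), among 14740 genes. The genes most like Upk3b were Gpm6a (0.772), Cldn15 (0.702), Tmem151a (0.694), Rspo1 (0.661) and Bst1 (0.639). Of the members, Krt19 had r = 0.899, Upk3b 0.783 and Krt7 0.764 with the mean that contains them, Lhx9 had 0.167 and Krt8 0.009. Krt8 had the lowest r of the 10 with that mean, and it ranked 7169 of 14740 genes.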

How the data were processed

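Whole-ovary RNA was prepared on RNeasy columns with DNase digestion, made into stranded TruSeq mRNA libraries and read from a single end on an Illumina HiSeq instrument, per the labels' protocols. The submitters' processing notes name the build GRCm38.p6 and the tools FastQC 0.11.8, Salmon 0.11.3, edgeR and R 3.5.2. Values were taken as deposited, from a single table of log2 CPM. Its minimum was -3.34 log2 CPM (0.0986 CPM), and how low counts were offset is not given in the sources used here. No column of another sample was present.

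The genes whose mean log2 CPM exceeded 0 were fitted in limma 3.58.1 (R 4.3.3) with 1 mean per group over 30 libraries and a mean-dependent prior variance. The fit had 20 residual degrees of freedom and was tested on simulated data. Differences are on the deposited log2 CPM scale and understate changes of low genes. A gene was called at an adjusted p under 0.05 (Benjamini-Hochberg over all genes tested), in 20 comparisons. All 10 members are named. In each comparison the member of smallest p and any other below an unadjusted 0.05 are given, and up to 3 genes of each further list. The members and lists were chosen with earlier results of these data known. The alternatives tried were quantile normalization, centring on the median, a filter at 2 or none, a pseudocount of 1 CPM, no mean-dependent prior, fewer groups, replicate numbers as a block, and leaving out each library. Correlations used 100000 permutations within groups. Promoter sequences are from RefSeq.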

Additional observations from a re-analysis of the deposited data

How the results depend on the processing

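No member was called against vehicle, between compounds or between doses under any alternative run. Over all ovaries at 3 against 0 months, 1 member (Krt8) was called under each alternative except 2. Without DiNP 100 replicate 3 at 3 months 2 were called, Krt8 and Msln (-0.61, adjusted p = 0.047, limma), so leaving out single libraries gave 1 to 2 calls. Leaving out together the 2 libraries of highest oviduct markers, chosen after seeing the data, gave 0 calls and reduced the genes called from 2986 to 1730. Krt8 was then 0.24, with an adjusted p of 0.071, against 0.0091 to 0.047 without single libraries. The cause was not tested. With replicate numbers as a replicate block 1 member was called over all ovaries and 0 in the other comparisons. Same-numbered libraries correlated at -0.44 to 0.44 at 0 months and -0.50 to 0.44 at 3 months, over 0.1 in 12 and 8 of 30 pairs, so the numbers do not pair the libraries. The median interaction of the members for DiNP 100 was 0.49. Leaving out single libraries moved it between 0.37, without DiNP 100 replicate 3 at 3 months, and 0.73, without DiNP 100 replicate 1 at 3 months. The depth of the libraries is unknown, which limits what can be said of the low members Krt7, Upk1b and Lrrn4.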
